A study of Mus musculus with 22 samples.

Results

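Agxt2l1 and Arl4d are 2 of the 23361 genes measured by mRNA sequencing of the hippocampal CA1 region in calorie-restricted and freely fed mice, and 2 of the 16978 genes with a mean level high enough to test. They were chosen on the measurements described here, because the difference between calorie restriction (CR) and ad libitum (AL) feeding had the same sign at 5 and at 15 months of age: Agxt2l1 was higher and Arl4d was lower under CR. The diet differences are therefore given as descriptions, with no test. The tests concern the change with age in mice of one diet and the variation between mice of one group. The choice used neither directly. The age comparisons share their libraries with the diet comparisons that chose the genes, so their p-values are not free of that choice. A low level in AL mice at 5 months favours both a choice for CR above AL and a rise with age in AL mice.

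The 22 libraries came from 22 female mice, 1 each, of the F1 generation of a Swiss Webster x DBA/C57BL6 cross. The AL mice ate a normal diet without limit, and for the CR mice the carbohydrates of the diet were cut from young adulthood onward. There were 5 AL and 5 CR mice at 5 months and 6 AL and 6 CR mice at 15 months. No mouse carried a transgene or a deletion according to the labels, and the tissue was a microdissection that holds neurons, glia and vessels together, so that fewer cells of a type and less RNA per cell cannot be told apart. Levels are FPKM, fragments per kilobase of exon scaled to all mapped fragments, and fitted differences are on the scale of log2(FPKM + 0.1).

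Agxt2l1, now named Etnppl, encodes ethanolamine-phosphate phospho-lyase, an enzyme that breaks phosphoethanolamine down to acetaldehyde, ammonia and phosphate. Phosphoethanolamine is an intermediate in the making and recycling of phosphatidylethanolamine, a major lipid of cell membranes, and in the brain the gene is known mainly from astrocytes. Arl4d encodes a small GTPase of the ADP-ribosylation factor (Arf) family. In its GTP-bound form it draws cytohesins, the exchange factors that activate Arf6, to the plasma membrane, where Arf6 acts on membrane traffic and actin.

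Agxt2l1 lies on the + strand of chromosome 3, at bases 130617448 to 130635750 in RefSeq on build GRCm38.p6, the assembly that mm10 also represents. The GENCODE annotation, in which the gene ends at base 130637521, held 6 transcripts, 4 of them protein coding. A RefSeq long noncoding RNA gene, Gm36322, lies within the RefSeq bounds. Whether the counting used strand is not given in the sources used here. Arl4d lies on the + strand of chromosome 11, at bases 101665541 to 101667832, with 1 GENCODE transcript of 2 exons and 1382 bases. No other RefSeq gene overlapped it.

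The 250 bases before each gene's first base, from RefSeq on GRCm38.p6, are shown. Both genes were chosen for a diet difference, and a reader can compare the sequence next to their starts. Capitals mark matches to 6 motifs searched on both strands, and lower case marks all other bases. The first sequence is chr3:130617198-130617447 and the second is chr11:101665291-101665540, both on the + strand.
Agxt2l1: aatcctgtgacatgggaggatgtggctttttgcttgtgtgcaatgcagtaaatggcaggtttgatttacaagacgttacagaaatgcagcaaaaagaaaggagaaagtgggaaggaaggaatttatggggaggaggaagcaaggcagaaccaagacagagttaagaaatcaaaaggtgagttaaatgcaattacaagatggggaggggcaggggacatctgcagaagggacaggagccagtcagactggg
Arl4d: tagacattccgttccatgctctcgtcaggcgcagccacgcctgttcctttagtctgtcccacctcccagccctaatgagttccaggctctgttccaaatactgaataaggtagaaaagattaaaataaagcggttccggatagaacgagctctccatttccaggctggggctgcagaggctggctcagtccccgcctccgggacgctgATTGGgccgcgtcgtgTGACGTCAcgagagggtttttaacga

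The Arl4d sequence held TGACGTCA, the full cyclic AMP response element, at bases 26 to 19 before the start. This motif was present in 508 of 32851 windows before gene starts (1.55%). It also held CCAAT on the opposite strand at bases 42 to 38 before the start, a motif present in 33.8% of windows. The Agxt2l1 sequence held none of the 6 motifs. At a second annotated Agxt2l1 start, GGGCGG (32.7% of windows) was found at bases 128 to 123 before that start. The other motifs searched were TATAAA (12.4% of windows), CACGTG (6.02%) and the full palindromic glucocorticoid response element, found in 3 windows (0.00913%). These matches describe letters and not binding.

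Agxt2l1 was a gene of low level in AL mice at 5 months and was several-fold higher in every other group. In the 5 AL mice at 5 months its FPKM was 0.558, 0.326, 0.386, 0.760 and 1.60. In the 5 CR mice at 5 months it was 2.71, 2.89, 6.24, 2.56 and 3.54. All 5 CR mice lay above all 5 AL mice at this age. At 15 months the 6 AL mice ranged from 1.93 to 8.23, with a median of 4.23. The 6 CR mice at 15 months ranged from 3.72 to 14.7, with a median of 6.40. At this age the diets overlapped: 5 of the 6 CR mice were above the AL median and 1 was above all AL mice.

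Arl4d was expressed at a higher level than Agxt2l1, with a mean of 9.69 FPKM over all libraries against 4.14, and it was lower under CR. In the 5 AL mice at 5 months its FPKM was 7.92, 9.46, 6.86, 13.0 and 15.5. In the 5 CR mice at 5 months it was 5.81, 4.38, 4.23, 6.36 and 5.85. All 5 CR mice lay below all 5 AL mice. At 15 months the AL mice ranged from 5.02 to 26.0 (median 12.7) and the CR mice from 4.72 to 15.0 (median 7.58). The diets overlapped at this age, with 5 of the 6 CR mice below the AL median and 1 below all AL mice.

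**Figure D1:**
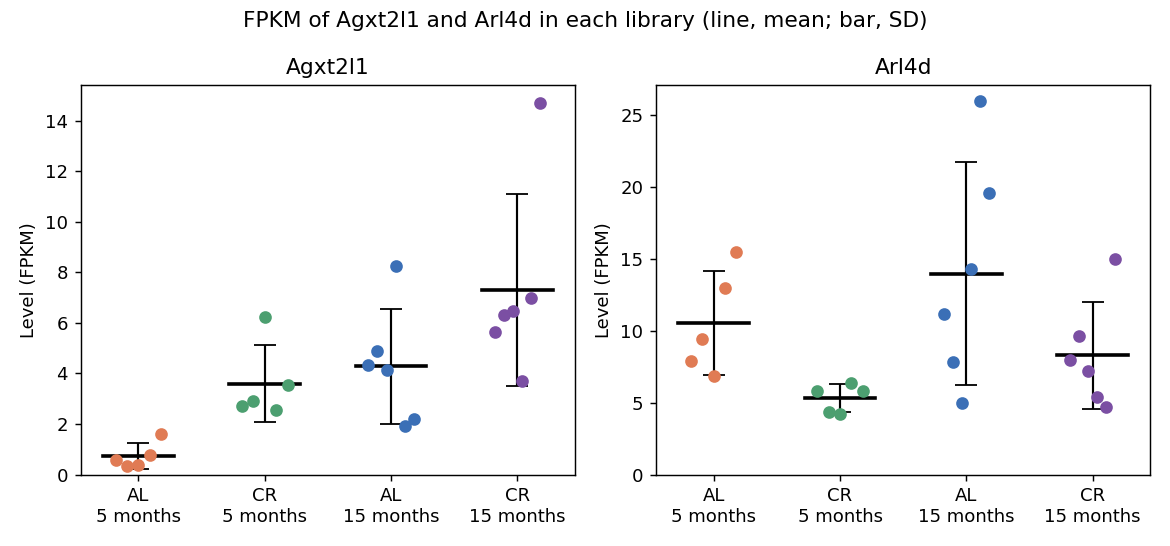
FPKM (vertical axes, linear) of Agxt2l1 and Arl4d in each of the 22 libraries, by group, with the mean as a line and the SD as a bar. At 5 months the CR points lie above all AL points for Agxt2l1 and below all AL points for Arl4d, while at 15 months the diets overlap for both genes.

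The group means of Agxt2l1 rose in the order AL at 5 months (0.726 FPKM ± 0.518, SD, n = 5), CR at 5 months (3.59 ± 1.53, n = 5), AL at 15 months (4.28 ± 2.28, n = 6) and CR at 15 months (7.30 ± 3.79, n = 6). Only the first step in this order separated groups whose ranges did not overlap. The ranges of the second and the third group overlapped, as did those of the third and the fourth. The order for Arl4d was CR at 5 months (5.32 FPKM ± 0.959, SD, n = 5), CR at 15 months (8.32 ± 3.72, n = 6), AL at 5 months (10.6 ± 3.62, n = 5) and AL at 15 months (14.0 ± 7.78, n = 6). All neighbours in this order had overlapping ranges. The mice of one group differed widely in both genes: the coefficient of variation was 42.5% to 71.3% for Agxt2l1 in the 4 groups. For Arl4d it was 34.3% to 55.6% in 3 groups and lower in the CR mice at 5 months, whose SD was 0.959 FPKM around a mean of 5.32. The SD of the log2 levels within groups was 0.68 for Agxt2l1 and 0.61 for Arl4d, which placed them at the 93.9 and 92.8 percentiles of the 13839 genes with a mean of at least 1 FPKM.

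On the log2 scale, the diet difference that chose Agxt2l1 was smaller at 15 than at 5 months. For Arl4d it changed between the ages by less than the SE of that change. The mean FPKM of Agxt2l1 under CR was 4.94 times that under AL at 5 months and 1.70 times at 15 months. In FPKM its AL and CR means lay about as far apart at 15 months (4.28 and 7.30) as at 5 months (0.726 and 3.59). The fitted differences of Agxt2l1 were 2.27 (SE 0.41) and 0.79 (SE 0.37) on the log2 scale. The mean FPKM of Arl4d under AL was 1.98 times that under CR at 5 months and 1.68 times at 15 months, with fitted differences of -0.93 (SE 0.36) and -0.65 (SE 0.33). The diet difference at 15 months minus that at 5 months was -1.48 (SE 0.56) for Agxt2l1 and 0.28 (SE 0.49) for Arl4d.

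Among all 16978 genes, limma, a linear model fitted across genes, called 0.0% for diet at 5 months at a Benjamini-Hochberg adjusted p under 0.05, that is 0 genes, with 789 genes at an unadjusted p under 0.05. It called 0.742% for diet at 15 months. Neither gene was among the calls at either age. The ranges of AL and CR mice were fully apart in 1.36% of genes at 5 months, both Agxt2l1 and Arl4d among them, and in 0.984% at 15 months, neither gene among them. Since these contrasts chose the genes, nothing is read from the shares. The sign of the fitted diet difference was the same at both ages in 9078 genes (53.5%), of which 4487 were higher and 4591 lower under CR. At least as large a rise as in Agxt2l1 at both ages was seen in 11 other genes, all of them microRNA or small nucleolar RNA genes. At least as large a fall as in Arl4d at both ages was seen in 51 other genes, of which 44 were such small RNA genes. The other 7 were 1700010I02Rik, Gm5512, Gm8801, H2-Ea-ps, Mgst2, Sgk2 and Tshz2. These names follow from the sizes alone and were chosen after the values were seen.

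**Figure D2:**
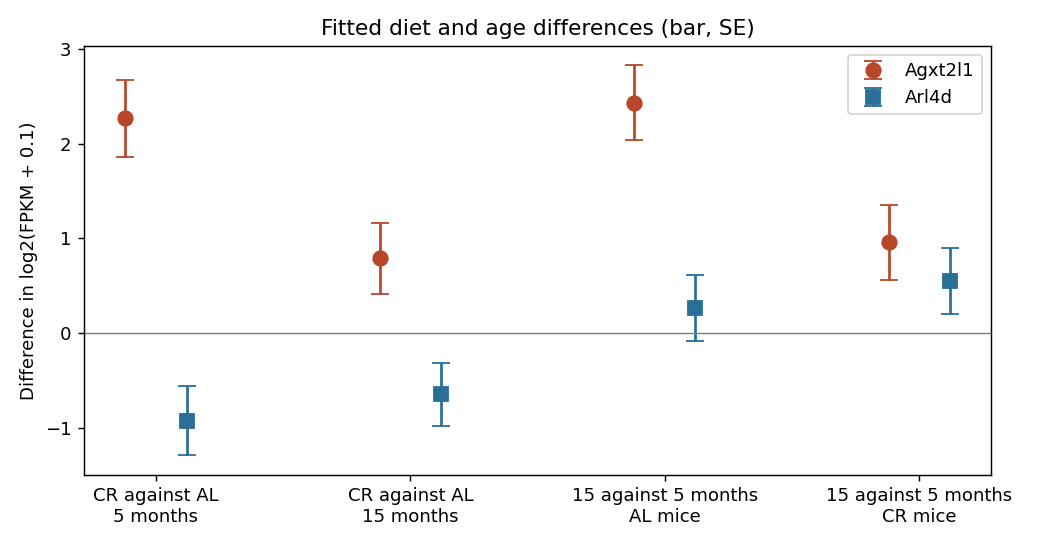
Fitted differences in log2(FPKM + 0.1) (vertical axis) for Agxt2l1 (circles) and Arl4d (squares) between the diets at each age and between the ages in each diet, with the SE as bars. Agxt2l1 lies above 0 in all 4 comparisons, at 2.27, 0.79, 2.44 and 0.96, and Arl4d lies below 0 for diet, at -0.93 and -0.65, and above 0 for age, at 0.27 and 0.55.

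With age, Agxt2l1 rose in AL mice. Its mean FPKM at 15 months was 5.90 times that at 5 months, and all 6 older mice were above all 5 younger mice. The fitted difference was 2.44 (SE 0.39, limma adjusted p = 0.000563). Over all divisions of these 11 libraries, 462 in number, the exact two-sided permutation p was 0.00216, the smallest this design can give, or 0.00866 after adjustment over the 4 age tests of the pair of genes. Age in AL mice called 20.6% of all genes tested, and the libraries did not overlap in 14.0%, so a call in this comparison was common. The low level in AL mice at 5 months also entered the choice of the gene, so the p-values of this comparison are not free of it. By size of rise, Agxt2l1 ranked 118 among the 16978 genes. In CR mice, the mean of Agxt2l1 at 15 months was 2.03 times that at 5 months, with 4 of the 6 older mice above all younger ones. The fitted difference of 0.96 (SE 0.39) was not called across all genes (limma adjusted p = 0.194), while the exact two-sided permutation p was 0.0195, or 0.0390 after adjustment over the 4 tests. Age in CR mice called 3.36% of genes, and the libraries did not overlap in 3.26%, Agxt2l1 among neither.

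For Arl4d no age difference beyond the spread between mice was detected in either diet. In AL mice the mean at 15 months was 1.33 times that at 5 months. By limma the fitted difference was 0.27 (SE 0.35) with an adjusted p of 0.615. The exact permutation p was 0.543, and 4 of 6 older mice were above the median of the younger ones. In CR mice the mean at 15 months was 1.56 times that at 5 months, with 4 of 6 older mice above all younger ones. The difference fitted by limma was 0.55 (SE 0.35) with an adjusted p of 0.431, and exact permutation gave a p of 0.0823, or 0.110 after adjustment over the 4 tests.

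The levels of region markers differed with age, and whether the tissue taken differed was not tested. Markers of CA1 pyramidal neurons were present in every library, but their mean log2 level was lower, and that of neocortex and subiculum markers higher, at 15 months. The region score, the mean log2 level of the 7 neocortex and subiculum markers minus that of the 6 CA1 markers, averaged -3.33 in both groups at 5 months. At 15 months it averaged -1.23 under AL and -2.0 under CR feeding. With age in AL mice 3 of the 6 CA1 markers fell and 3 of the 7 neocortex and subiculum markers rose by limma, against 20.6% called over all genes. None of either list was called in CR mice, against 3.36% over all genes. The AL mice at 15 months with the highest Arl4d, 26.0 and 19.6 FPKM, had the highest region scores of their group, -0.10 and -0.24, and the lowest Agxt2l1, 1.93 and 2.18 FPKM. The CR mouse at 15 months with the highest region score, -0.40, had instead the lowest Arl4d of its group, 4.72 FPKM, and 6.99 FPKM of Agxt2l1. Over deviations from the group means, the region score had a Pearson r of -0.198 with Agxt2l1 (within-group permutation, adjusted p = 0.686). Its r with Arl4d was 0.140 (within-group permutation, adjusted p = 0.822). With the region score in the model, the age difference in AL mice was 2.78 for Agxt2l1 (limma adjusted p = 0.0375) and 0.05 for Arl4d (limma adjusted p = 0.970). The diet differences were then 2.27 and 0.66 for Agxt2l1 and -0.93 and -0.57 for Arl4d at 5 and 15 months. The mean log2 level of the 16 astrocyte markers averaged 6.09 (AL) and 6.02 (CR) at 5 months and 6.02 (AL) and 6.11 (CR) at 15 months, with overlapping ranges. Of 7 choroid plexus markers, 4 fell with age in AL mice, where 20.6% of all genes were called, and 6 in CR mice, where 3.36% were, and their mean log2 level averaged 0.50 (AL) and 2.01 (CR) at 5 months and -1.34 (AL) and -1.40 (CR) at 15 months. The part of the dissection in the results was not tested beyond these fits and correlations.

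No relation between Agxt2l1 and Arl4d was detected across mice of one group. Over the 22 deviations from the group means the Pearson r was 0.0863 (within-group permutation p = 0.746) and the Spearman rho was -0.0119 (p = 0.964). Without the libraries farthest from the median, one AL mouse at 5 months and one CR mouse at 15 months, r was -0.255. These mice had the highest level of both genes in their groups. Among the 6 AL mice at 15 months r was -0.52 (exact permutation p = 0.307) and rho was -0.486 (exact permutation p = 0.356). Without the 2 farthest of these mice r was -0.772. Among the 6 CR mice at 15 months r was 0.748 (exact permutation p = 0.104) and rho was 0.257 (exact permutation p = 0.658), and without the 2 farthest r was -0.670, so that the positive value rested on those mice. Adjusted over the 3 Pearson tests, the smallest p was 0.3125.

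Within groups, Agxt2l1 followed the mean level of a list of genes that glucocorticoids induce. The list was chosen with earlier results of these data known, so the p-values below are not an independent test. For each list of genes, the mean log2 level of its members was taken as a score, and the deviations of the score and of the gene from their group means were compared over the 22 mice. Agxt2l1 and the score of 19 glucocorticoid-induced genes had a Pearson r of 0.830 (within-group permutation p = 9.0e-05, adjusted p = 0.00288 over 32 relations). The Spearman rho was 0.748 (adjusted p = 0.0256), and r was 0.734 without the 2 mice farthest from the median of the score. The 3 mice with the highest score deviations, 1 CR mouse at 15 months, 1 AL mouse at 5 months and 1 AL mouse at 15 months, were also the 3 with the highest Agxt2l1 deviations, and without them r was 0.60 (permutation p = 0.0275). Among the AL mice at 15 months alone r was 0.834 (n = 6, exact permutation p = 0.0417) and rho was 0.771 (exact permutation p = 0.103), and r was 0.504 without the 2 farthest. Among the CR mice at 15 months alone r was 0.909 (n = 6, exact permutation p = 0.0153) and rho was 0.714 (exact permutation p = 0.136), and r was 0.903 without the 2 farthest. These within-group p-values are unadjusted, and by rank neither passed.

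Of the 19 glucocorticoid-induced genes, 16 had a positive r with Agxt2l1, with a median of 0.365 against 0.0173 over all genes tested. Plin4, a lipid droplet protein, had the highest r, 0.810, which was also the highest of all 16977 genes. Tsc22d3, the glucocorticoid-induced leucine zipper, had 0.742, and Dusp1, a phosphatase of MAP kinases, had the lowest, -0.441. Per1 (-0.018) and Errfi1 (-0.145) were also below 0, and Fkbp5 had 0.276. Without Plin4 and Tsc22d3 in the list, r with the score was 0.788. Between CR and AL, the median difference of the list was -0.13 at 5 months and 0.03 at 15 months. None of its genes was called for diet, against 0.0% and 0.742% of all genes at these ages. With age in AL mice, 2 of the 19 rose and 5 fell, against 20.6% called over all genes. The cyclin-dependent kinase inhibitor gene Cdkn1a rose by 1.06 (limma adjusted p = 0.00692) and the clock gene Per1 by 0.57 (limma adjusted p = 0.0219). Those that fell were Fkbp5, a co-chaperone of the glucocorticoid receptor, the metallothionein genes Mt1 and Mt2, Errfi1 and Ddit4, by 0.53 to 0.80. None was called with age in CR mice, where 3.36% of all genes were. Arl4d had an r of 0.380 with the same score (permutation p = 0.150, adjusted p = 0.538).

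**Figure D3:**
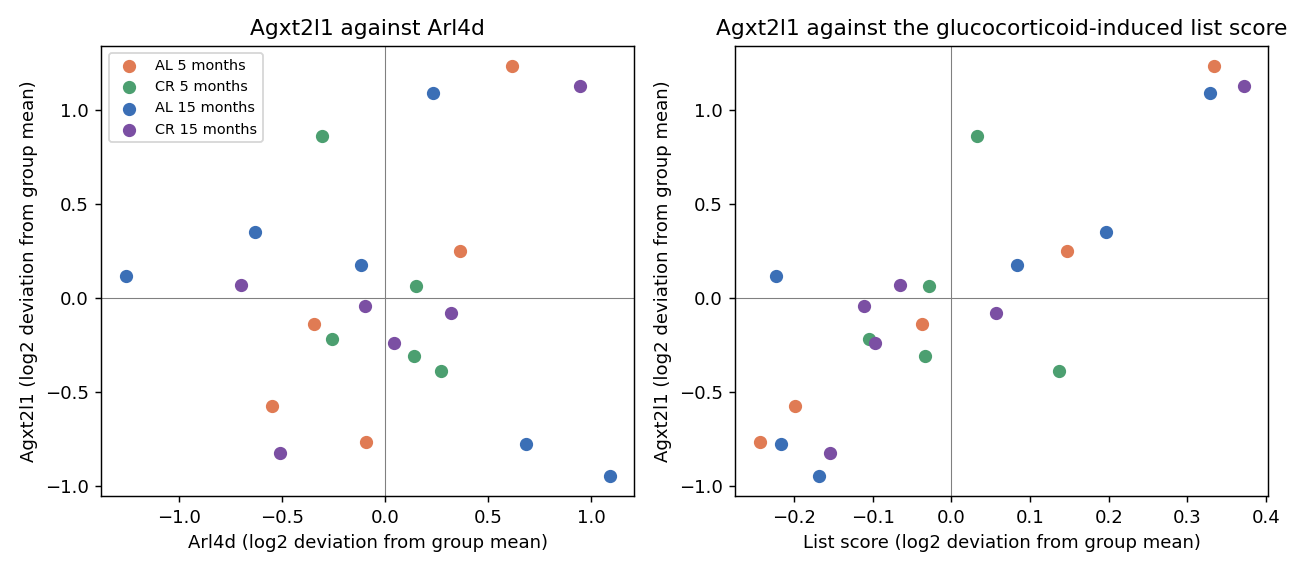
Log2 deviation of Agxt2l1 from its group mean (vertical axes) against that of Arl4d (left) and that of the score of glucocorticoid-induced genes (right), 1 point per mouse, coloured by group. The points on the left show no common direction (r = 0.0863), and those on the right rise together (r = 0.830), with 3 mice at the upper right end.

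No other list followed either gene past the adjusted threshold. Arl4d had its highest r with the scores of neocortex and subiculum markers (0.570, adjusted p = 0.338) and oligodendrocyte markers (0.526, adjusted p = 0.274), and its lowest with astrocyte markers (-0.475, adjusted p = 0.467). Of the 16 astrocyte genes, 2 had a positive r with Arl4d, and Slc4a4, a bicarbonate transporter, had the lowest at -0.691. Agxt2l1 had an r of 0.221 with the astrocyte score (adjusted p = 0.677). Its r was positive with 10 of the 16 astrocyte genes, from -0.436 with Sox9 to 0.560 with Gjb6, an astrocyte connexin.

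Among the genes listed for phosphoethanolamine metabolism, the pathway of Agxt2l1, 1 passed the test for diet. The list also held relatives of Agxt2l1 and genes of the neighbouring phosphocholine steps. Of the 18 other genes listed, 17 were tested. Their median difference between CR and AL was 0.03 at 5 months and -0.04 at 15 months, against a median of 0.00 over all genes at both ages. None was called at 5 months (0.0% of all genes), and at 15 months 1 was called (0.742% of all genes). This was Etnk2, one of the ethanolamine kinases that make phosphoethanolamine, which fell by 0.96 under CR (limma adjusted p = 0.0493), a call lost in 28 of 33 alternative fits. The genes of highest level in the pathway, Etnk1 (mean 71.6 FPKM) and Pcyt2 (39.9 FPKM), which make phosphoethanolamine and pass it on to the lipid, were not called in any comparison. With age in AL mice, where 20.6% of all genes were called, 2 of the 17 rose, Etnk2 by 1.19 (limma adjusted p = 0.00191) and Sgpl1, the sphingosine phosphate lyase that yields phosphoethanolamine, by 0.29 (limma adjusted p = 0.00358). None was called with age in CR mice, where 3.36% of all genes were.

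In the Arf family of Arl4d no relative was called for diet, and neither was Arl4d. Of 26 other family members, 25 were tested, with median diet differences of -0.01 at 5 months and 0.06 at 15 months. None was called at either age, against 0.0% and 0.742% of all genes. The closest relatives, Arl4a (mean 12.3 FPKM) and Arl4c (17.7 FPKM), had fitted diet differences of 0.19 and 0.13 at 5 months and -0.33 and -0.39 at 15 months, none past the test. With age in AL mice 1 rose and 4 fell of the 25, against 20.6% called over all genes. Arl4a rose by 0.49 (limma adjusted p = 0.0471), a call lost in 21 of 33 alternative fits, with a difference of -0.11 once the region score was in the model. Arl15 fell by 1.44, Arf1 by 0.47, Sar1b by 0.37 and Arf4 by 0.31. None was called with age in CR mice, where 3.36% of all genes were. Of the 11 exchange factors for Arf6, the cytohesins that Arl4d draws to the membrane among them, 0 were called by limma in any of the 4 comparisons. Over all genes these called 20.6% and 3.36% for age in AL and CR mice, and 0.0% and 0.742% for diet at 5 and 15 months.

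**Figure D4:**
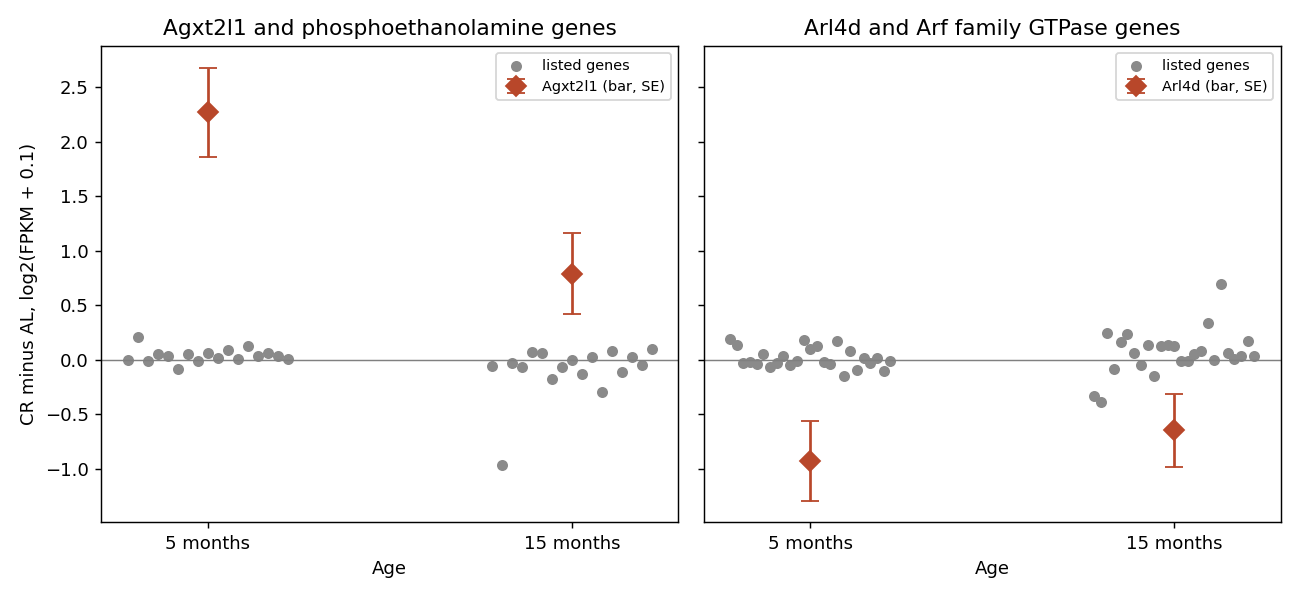
Fitted difference between CR and AL in log2(FPKM + 0.1) (vertical axis) at 5 and 15 months for the listed genes of each family (grey points) and for Agxt2l1 and Arl4d (diamonds, with the SE as bars). The differences of Agxt2l1 were 2.27 and 0.79, and the medians of its listed genes were 0.03 and -0.04. Those of Arl4d were -0.93 and -0.65, and the medians of its family were -0.01 and 0.06. The pair was chosen for these differences, so its distance from the listed genes is not a test.

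The genes most like each of the pair were taken from the 13839 with a mean of at least 1 FPKM, by Pearson r of log2 levels over the 22 libraries, which include the age and diet differences. For Agxt2l1 the highest were Cry1, a clock repressor (0.790), Gpld1, which cleaves proteins from their lipid anchors (0.789), Cul7 (0.757), 2810403A07Rik (0.746) and Kansl3 (0.741). The lowest were Dazl (-0.763), E2f3 (-0.752), Tmem42 (-0.740), Ttc30b (-0.722) and Fbxo34 (-0.719). For Arl4d the highest were Afap1l1 (0.833), Gca (0.822), Osbpl3 (0.819), Sytl2 (0.810) and Prrg1 (0.801), and the lowest were Fbxo21 (-0.826), Nkain3 (-0.796), Tmem28 (-0.784), Lhx9 (-0.780) and Ston2 (-0.764).

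Over deviations from the group means, which leave out the age and diet differences, Agxt2l1 was most like Plin4 (0.810), Plekhf1 (0.783), Rapgef3 (0.757), Usp54 (0.746) and Tsc22d3 (0.742), and least like Ovca2 (-0.819), Rbm24 (-0.782), Hspa1l (-0.769), Mapk14 (-0.755) and Hace1 (-0.745). None of the 5 genes highest by levels was among the 5 highest by deviations. For Arl4d, Sytl2 (0.786), Afap1l1 (0.773) and Gca (0.770) were among the 5 highest on both measures, and Lypd6 (0.788) was among them by deviations only, while Nkain3 (-0.843) and Lhx9 (-0.818) were among the lowest on both, with Bves (-0.807), Ndnl2 (-0.792) and Acot2 (-0.781). These are the extremes over all genes searched and are given as descriptions.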

How the data were processed

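RNA from frozen microdissections of the hippocampal CA1 region was made into TruSeq mRNA libraries. The deposited FPKM values were made by the authors, whose processing notes name bcl2fastq, TopHat, Picard, Cufflinks and build mm10, and were used as deposited. Whole reads could not be recovered from them, so the depth behind each value is unknown from the files and no counting interval is given. The median FPKM per library was 2.51 to 3.10, and 18281 to 19175 genes were above 0. At 15 months the FPKM summed over all genes divided the libraries of each diet. In AL mice the sum was 639064 to 710197 in replicates 0 to 2 and 929120 to 964105 in replicates 3 to 5. The latter had the highest Arl4d of their group (14.3 to 26.0 FPKM). In CR mice the sum was 710236 to 763660 in replicates 0 to 3 and 934066 to 956201 in replicates 4 and 5. These had the lowest and the highest Arl4d (4.72 and 15.0 FPKM). Whether this division bears on the results was not tested.

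Genes with a mean of at least 0.1 FPKM were fitted as log2(FPKM + 0.1), a scale that understates the change of low genes, in 1 limma model of the 4 groups (lmFit, contrasts, eBayes with trend; limma 3.58.1, R 4.3.3), called at a Benjamini-Hochberg adjusted p under 0.05, and the code was checked on simulated data. Single values were tested by exact permutation, or by 100000 permutations within groups (Python 3.11.15, numpy 2.4.6, scipy 1.17.1). The genes and lists were chosen with earlier results of these data known. Named genes were the pair, the 5 most and 5 least like each, and the called or highest members of the role lists; 1 gene the rule names is not reported here. Genes named for an equal diet difference were added. Replicate numbers were not taken to pair mice: of 21 same-numbered pairs, 1 had a correlation of deviations over 0.1. This limit cannot exclude a weaker pairing, and fits with a replicate block are given below. Sequences and coordinates came from RefSeq and GENCODE on GRCm38. Alternatives were another pseudocount, scaling, filter or covariate, a replicate block, and each library left out. Those for the glucocorticoid score were chosen after seeing the data.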

Additional observations from a re-analysis of the deposited data

Results flagged for a closer look

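2 of the 8 sets of values, 1 per gene and group, had a mouse far above its group by the limit of Dixon's gap test. For normally distributed values about 1 in 20 sets would pass this limit, counting a mouse at either end. For Agxt2l1, one CR mouse at 5 months (replicate 2) had 6.24 FPKM against 2.56 to 3.54 in the other 4, and one CR mouse at 15 months (replicate 5) had 14.7 FPKM against 3.72 to 6.99 in the other 5. Within its group, the second of these mice also had the highest Arl4d, 15.0 FPKM, and the highest score of glucocorticoid-induced genes. On the log2 scale neither mouse passed the same limit.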

How the results depend on the processing

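The age difference of Agxt2l1 in AL mice was called in all 33 alternatives (1.55 to 2.78, adjusted p 0.000326 to 0.0375), and it was 2.40 (adjusted p = 0.00279) with the replicate block. Its age difference in CR mice (0.73 to 1.18, adjusted p 0.118 to 0.346) and those of Arl4d (0.05 to 0.52 in AL mice, adjusted p 0.254 to 0.970, and 0.36 to 0.72 in CR mice, 0.207 to 0.672) were called in none. With the replicate block these were 0.92, 0.10 and 0.38. The diet difference of Agxt2l1 ran from 1.40 to 2.58 at 5 months, lowest with a pseudocount of 1, and from 0.56 to 1.01 at 15 months. That of Arl4d ran from -1.07 to -0.77 and from -0.90 to -0.43.

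The correlation between the genes (-0.101 to 0.304 with libraries left out) changed sign by rank (-0.0119), without replicate 4 of the AL mice at 5 months (-0.0471) and without replicate 5 of the CR mice at 15 months (-0.101). That of Agxt2l1 with the glucocorticoid score stayed between 0.60 and 0.92. With the region score, Arl4a turned to -0.11 and 266 genes were called for age in AL mice. Among the genes named from the role lists for age in AL mice, only Arl15 was still called with it. For age in CR mice 279 genes were called with the region score. For diet at 15 months 0 genes were called with the 2 groups fitted alone and 323 with the block, against 126 in the reported fit, and 15 to 732 with one library left out. The cause of these shifts was not tested. Errors given here reflect differences between the 5 or 6 libraries of a group, 1 per mouse, since the files give no depth.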
